A study of Mus musculus with 12 samples.

Results

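Fibronectin and the matricellular proteins are secreted glycoproteins of the extracellular matrix, and 10 of their genes were followed in mouse muscle: Fn1, Postn, Tnc, Tnxb, Thbs1, Thbs2, Thbs4, Sparc, Ctgf and Cyr61. They were taken by gene symbol from a table of 24421 entries, and all 10 were among the 13937 genes with enough counts to be tested. RNA was sequenced from the tibialis anterior, a fast muscle of the lower leg, of 6 wild-type mice (WT, strain C57Bl/6) and of 6 mice of the mdx/mTR strain. All were 4-month-old males, with 1 library each. The mdx allele is a mutation of Dmd, the dystrophin gene, which makes it a model of Duchenne muscular dystrophy, and mTR stands for the mouse telomerase RNA gene, which is disrupted in this strain. No mice with only one of these alleles are analysed here and the labels do not give the generation of telomerase loss, so the parts of the 2 alleles in any difference, and of the strain backgrounds, cannot be told apart.

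Fibronectin is assembled by cells into fibrils through integrins and forms part of the first matrix laid down in an injured tissue, onto which collagens are deposited. Matricellular proteins sit in the matrix without being main load-bearing fibres: they bind growth factors, proteases, collagens and cell-surface receptors, and many are abundant in development, wounds and fibrosis and scarce in resting adult tissue. In dystrophic muscle, cycles of fibre damage and repair are accompanied by build-up of connective tissue between the fibres. Several of these genes are known targets of transforming growth factor beta (TGF-β), and Ctgf and Cyr61 are also textbook targets of the mechanosensitive co-activators YAP and TAZ, which act through TEAD transcription factors.

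Library totals ran from 35136327 to 60330410 counts, 36903560 to 40981012 in WT and 35136327 to 60330410 in mdx/mTR mice. Levels are given as CPM, the count of a gene relative to its library total scaled by TMM (edgeR's trimmed mean of M-values). Differences are log2 fold changes ± standard error, above 0 where mdx/mTR muscle was higher, from edgeR's quasi-likelihood test across all 13937 genes. The test returns no standard error, so it was derived as the absolute log2 fold change over the square root of the F statistic. P-values adjusted by Benjamini-Hochberg over all of these genes are called at 0.05. Dmd was 237 ± 6.89 CPM (SD, n = 6) in WT and 46.8 ± 7.20 CPM in mdx/mTR mice, a log2 fold change of -2.34 ± 0.09, in the direction of the labels. The myofibre list, among it Acta1 and Ckm, summed to 131400 to 157500 CPM in WT and 103500 to 145500 CPM in mdx/mTR libraries. Fibre transcripts were thus abundant in every library. Of the 6 markers, 1 was called higher and 1 lower, beside 25.0% and 23.4% of all genes. Fewer cells of a type and less RNA per cell cannot be told apart in whole-muscle RNA.

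RefSeq promoters of build GRCm38.p6 were found for 7 of the 10 genes, with none for Fn1, Thbs1 or Ctgf. The 250 bases before the annotated start are shown for 4 genes, because their windows hold a match to a TEAD or AP-1 site or, in Postn, a TATA box just before the start. Capitals mark a TATA box in Postn, GGAATG (the TEAD site, here on the opposite strand) and a TATA box in Cyr61, a pair of overlapping GGAATG matches on the opposite strand in Thbs4, and an AP-1 match in Tnxb. The windows lie at chr3:54360857-54361106 (plus strand), chr3:145649986-145650235 (minus strand), chr13:92794819-92795068 (minus strand) and chr17:34670285-34670534 (plus strand), and each reads 5′ to 3′ on the strand of its gene.
Postn: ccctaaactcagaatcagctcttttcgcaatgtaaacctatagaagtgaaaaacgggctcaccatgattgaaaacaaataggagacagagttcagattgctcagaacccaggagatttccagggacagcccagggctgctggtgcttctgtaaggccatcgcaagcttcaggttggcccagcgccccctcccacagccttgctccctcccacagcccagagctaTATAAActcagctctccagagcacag
Cyr61: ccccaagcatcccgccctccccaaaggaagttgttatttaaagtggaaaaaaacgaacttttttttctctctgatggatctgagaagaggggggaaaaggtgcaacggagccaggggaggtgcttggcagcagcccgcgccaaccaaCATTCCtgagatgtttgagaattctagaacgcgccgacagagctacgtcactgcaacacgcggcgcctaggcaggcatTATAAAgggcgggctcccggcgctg
Thbs4: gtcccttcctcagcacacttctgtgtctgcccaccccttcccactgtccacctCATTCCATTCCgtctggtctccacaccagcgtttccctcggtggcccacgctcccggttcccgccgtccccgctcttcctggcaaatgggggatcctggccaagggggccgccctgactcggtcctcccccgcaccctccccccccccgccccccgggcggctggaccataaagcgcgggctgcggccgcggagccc
Tnxb: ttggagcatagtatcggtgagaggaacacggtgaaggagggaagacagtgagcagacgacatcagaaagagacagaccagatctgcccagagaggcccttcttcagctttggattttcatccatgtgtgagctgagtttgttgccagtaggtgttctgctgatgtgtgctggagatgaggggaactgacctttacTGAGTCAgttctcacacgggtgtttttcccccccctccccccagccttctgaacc

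Motifs were searched on both strands from 250 bases before to 50 after the start. The 7 genes have 9 windows in all. GGAATG was present in 2 of the 7 genes, Cyr61 (103 bases before the start, position -103) and Thbs4 (-197 and -192). That is 2 of 9 windows, beside 14.7% of all 32851 promoter windows of that length. TATAAA was present in 4 of the 7 genes (Postn, Cyr61, Tnc and Thbs2), in 5 of 9 windows, beside 13.6% of all windows. It lay at -26 in Postn and -25 in Cyr61. In Thbs2 it lay farther out, at -126 on the opposite strand. In Tnc the same site was seen from different starts, at -205 and -126. The palindrome TGANTCA was found in Tnxb at -55 (1 of 9 windows) and in 7.81% of all windows. GGGCGG was found in Cyr61, Tnc and Thbs4 (4 of 9 windows) and in 35.7% of all windows. The SMAD palindrome GTCTAGAC (0.213% of windows) and the CArG box bound by serum response factor (1.63%) had no match among the 7 genes. A match describes letters in this window and does not show that a factor binds there.

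All 10 genes were called higher in mdx/mTR muscle, where 25.0% of all genes tested were called higher and 48.3% were called in either direction. The median log2 fold change of the 10 was 0.99, beside 0.01 over all genes tested. At least 2-fold higher and called were 5 of the 10 (Fn1, Postn, Tnc, Thbs1 and Thbs4), beside 7.24% of all genes. Only Fn1 and Thbs4 had every mdx/mTR mouse above every WT mouse, 2 of 10 genes beside 12.6% of all genes (25.2% were without overlap in either direction). With library totals in place of TMM, which shifts the median gene from 0.01 to 0.17, the share of all genes called higher was 40.2% and the 10 genes were still called higher.

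**Figure D1:**
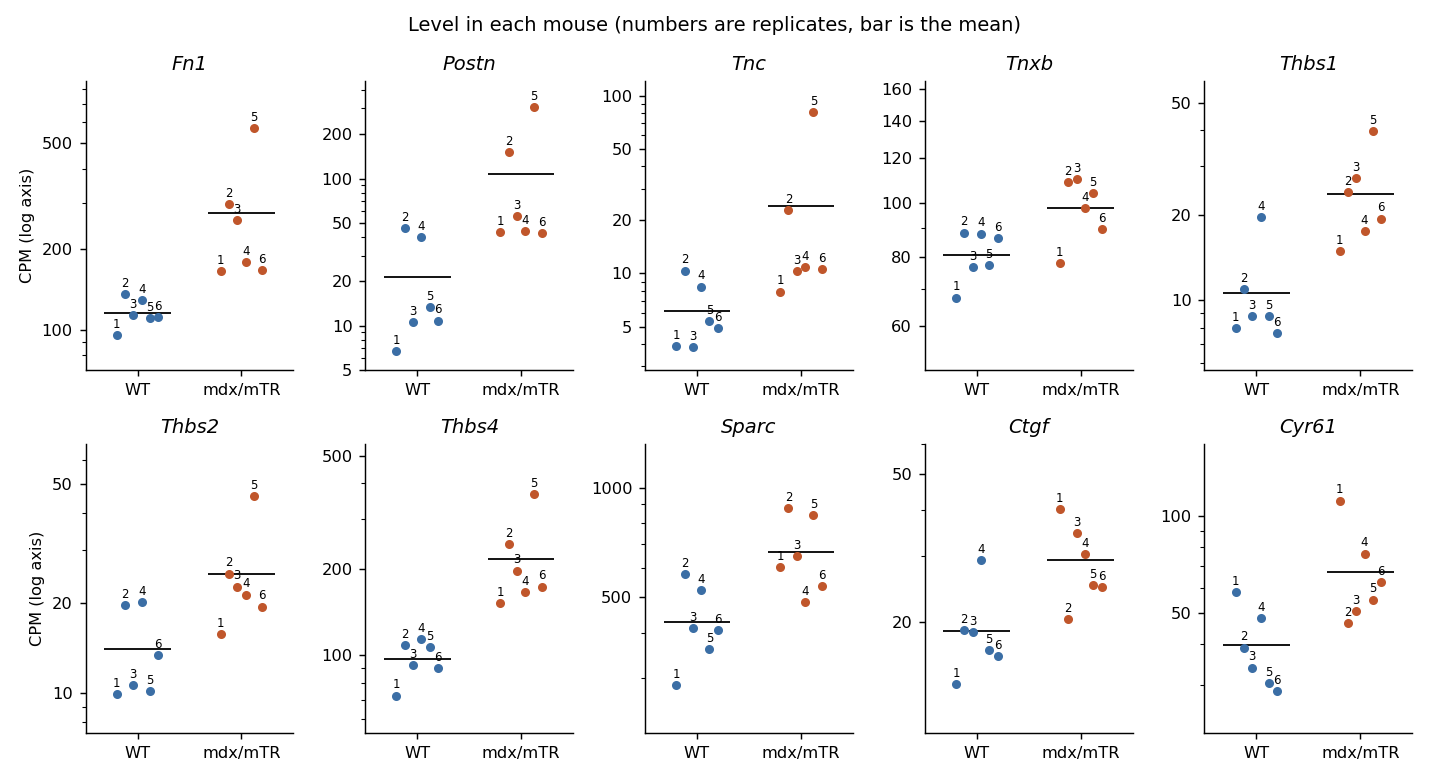
Level of each gene in CPM (vertical axes, 1 panel per gene, log scale with its own range) in the 6 WT and 6 mdx/mTR mice; points are single mice with their replicate number, and horizontal bars are group means. Fn1 and Thbs4 separate the groups fully, while in Postn the mean of the mdx/mTR mice lies above 4 of the 6 points, with replicate 5 at 307 CPM.

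Fn1 (ENSMUSG00000026193.15, GRCm38 chromosome 1, 71585520 to 71653200, minus strand) encodes fibronectin. It ranged from 95.1 to 136 CPM in WT, with a median of 112 CPM. In mdx/mTR mice it ranged from 166 to 572 CPM, with a median of 218 CPM. The lowest mdx/mTR mouse thus lay above the highest WT mouse, and replicate 5 lay far above the other mdx/mTR mice. The group means were 116 ± 14.8 and 273 ± 156 CPM (SD, n = 6 each), a log2 fold change of 1.23 ± 0.27 (2.35-fold; edgeR adjusted p = 0.00192). Without mdx/mTR replicate 5 the log2 fold change was 0.88.

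Postn (chromosome 3, 54361109 to 54391037, plus strand) encodes periostin, a collagen-binding protein induced by TGF-β and made by activated fibroblasts. It had the highest fold change of the 10 genes, above 99.0% of all genes tested. In WT mice it spanned 6.72 to 46.2 CPM with a median of 12.1 CPM, and in mdx/mTR mice 42.4 to 307 CPM with a median of 49.7 CPM. WT was split: replicates 2 and 4 were at 46.2 and 40.2 CPM, and the other 4 were between 6.72 and 13.4 CPM. WT replicate 2 thus lay above 3 of the mdx/mTR mice. The mdx/mTR mice were split as well, with replicates 5 and 2 at 307 and 151 CPM and the other 4 between 42.4 and 55.3 CPM. The log2 fold change was 2.33 ± 0.62 (5.03-fold; means 21.3 ± 17.2 and 107 ± 107 CPM, SD, n = 6 each; edgeR adjusted p = 0.00706), and it was 1.66 without mdx/mTR replicate 5 and 2.71 without WT replicate 2.

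The tenascins Tnc and Tnxb are large glycoproteins with contrasting roles: tenascin-C reappears in damaged tissue and weakens cell adhesion, whereas tenascin-X is a standing component of connective tissue that helps to organise collagen fibrils. Tnc (chromosome 4, 63959785 to 64047015, minus strand) spanned 3.86 to 10.4 CPM across the WT mice, with a median of 5.17 CPM, and 7.90 to 80.6 CPM in mdx/mTR mice, with a median of 10.7 CPM. Replicate 5 alone reached 80.6 CPM, the next mdx/mTR mouse was at 22.7 CPM, and 4 of the 6 were above every WT mouse. The log2 fold change was 1.95 ± 0.56 (3.87-fold; edgeR adjusted p = 0.0105), and 1.02 without mdx/mTR replicate 5. Across the settings tried, the adjusted p of Tnc ranged from 0.00320 to 0.0596, and Tnc was not called with limma-voom.

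Tnxb (chromosome 17, 34670535 to 34719815, plus strand) was even across mice: it spanned 67.5 to 88.3 CPM across the WT mice (median 81.8 CPM) and 77.9 to 110 CPM across the mdx/mTR mice (median 101 CPM). Only the lowest mdx/mTR mouse, replicate 1, fell inside the WT range. Its log2 fold change of 0.28 ± 0.09 (1.21-fold; edgeR adjusted p = 0.0186) was the smallest of the 10. Of the 50-base stretches in its exons, 6.63% also occur in the pseudogene Tnxa, so its count is uncertain to that extent. Tnxa was not among the entries counted under this name. The other 9 genes share no such stretch with another gene. The Tnc to Tnxb ratio went from a geometric mean of 0.0774 in WT to 0.171 in mdx/mTR mice, a log2 difference of 1.14 (two-sided exact permutation p = 0.0173), but did not pass after adjustment over 7 ratios (adjusted p = 0.0758), and the difference was 0.70 without mdx/mTR replicate 5.

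Among the thrombospondins, Thbs1 activates latent TGF-β and binds the receptors CD36 and CD47, Thbs2 limits vessel growth and shapes collagen fibrils, and Thbs4 is found in muscle and tendon. Thbs4 (chromosome 13, 92751590 to 92794818, minus strand) spanned 72.3 to 114 CPM across the WT mice (median 99.7 CPM) and 152 to 367 CPM across the mdx/mTR mice (median 186 CPM). The groups did not overlap, and its adjusted p was the smallest of the 10 genes (log2 fold change 1.16 ± 0.19, 2.23-fold; edgeR adjusted p = 0.000308).

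Thbs1 (chromosome 2, 118111876 to 118127133, plus strand) was between 7.63 and 10.9 CPM in 5 WT mice and at 19.7 CPM in WT replicate 4. In mdx/mTR mice it ranged from 14.9 to 39.8 CPM with a median of 21.8 CPM, so WT replicate 4 reached into the mdx/mTR range. Its log2 fold change was 1.16 ± 0.27 (2.24-fold; edgeR adjusted p = 0.00269), and 1.43 without that mouse. Thbs2 (chromosome 17, 14665500 to 14694235, minus strand) spanned 9.95 to 20.2 CPM across the WT mice (median 12.1 CPM) and 15.7 to 45.4 CPM across the mdx/mTR mice (median 22.0 CPM). WT replicates 2 and 4 were again the high ones, at 19.7 and 20.2 CPM, and 4 of the 6 mdx/mTR mice were above every WT mouse. Its log2 fold change of 0.83 ± 0.26 (1.78-fold; edgeR adjusted p = 0.0155) was 0.57 without mdx/mTR replicate 5.

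Ratios between the thrombospondins were tested as well. Thbs4 to Thbs1 was 9.19 in WT and 8.97 in mdx/mTR mice as geometric means (two-sided exact permutation p = 0.853). Thbs1 to Thbs2 went from 0.758 to 0.962 (exact permutation p = 0.0455, adjusted p = 0.0795), and Thbs4 to Thbs2 from 6.97 to 8.63 (exact permutation p = 0.0779, adjusted p = 0.109). None of these passed, which does not show that the genes changed equally.

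Sparc (chromosome 11, 55394500 to 55423183, minus strand) encodes osteonectin, a collagen-binding protein that aids the deposition of collagen. It spanned 287 to 579 CPM across the WT mice (median 409 CPM) and 485 to 879 CPM across the mdx/mTR mice (median 627 CPM). WT replicates 2 and 4, at 579 and 523 CPM, lay within the mdx/mTR range. The log2 fold change was 0.64 ± 0.18 (1.56-fold; edgeR adjusted p = 0.00922). Relative to fibronectin, Sparc went from a ratio of 3.61 to 2.65 (log2 difference -0.45; exact permutation p = 0.0238, adjusted p = 0.0758), and periostin from 0.147 to 0.316 (1.11; p = 0.0325, adjusted p = 0.0758). Neither passed over the 7 ratios; without mdx/mTR replicate 1 the Sparc to Fn1 difference was -0.54 and passed (exact permutation, adjusted p = 0.04545), and without mdx/mTR replicate 5 it was -0.28.

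Ctgf (Ccn2) and Cyr61 (Ccn1) encode CCN proteins, which bind integrins and growth factors; both genes respond within a short time to serum and stretch. Ctgf (chromosome 10, 24595442 to 24598683, plus strand) spanned 13.6 to 29.3 CPM across the WT mice (median 17.8 CPM) and 20.3 to 40.2 CPM across the mdx/mTR mice (median 27.7 CPM). The high WT value belonged to replicate 4, and 3 of the 6 mdx/mTR mice exceeded it. Its log2 fold change was 0.63 ± 0.19 (1.54-fold; edgeR adjusted p = 0.0131). The opposite-strand gene Gm15270 overlaps 23.2% of the exon bases of Ctgf, and the handling of strand is not given in the sources used here, so reads of the pair cannot be told apart there. Opposite-strand genes overlap smaller shares of Thbs1 (Gm29233, 3.42%), Fn1 (Apol7d, 2.50%) and Tnc (8030451A03Rik, 2.26%). Apol7d was among the entries counted, while Gm15270, Gm29233 and 8030451A03Rik were not, under these names. Cyr61 (chromosome 3, 145646976 to 145649981, minus strand) spanned 28.7 to 58.1 CPM across the WT mice (median 36.5 CPM) and 46.6 to 112 CPM across the mdx/mTR mice (median 58.8 CPM). Its highest mouse was replicate 1 in both groups. The log2 fold change was 0.76 ± 0.22 (1.69-fold; edgeR adjusted p = 0.0116), and 0.55 without mdx/mTR replicate 1. The Ctgf to Cyr61 ratio was 0.485 in WT and 0.449 in mdx/mTR mice (two-sided exact permutation p = 0.660, adjusted p = 0.770).

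**Figure D2:**
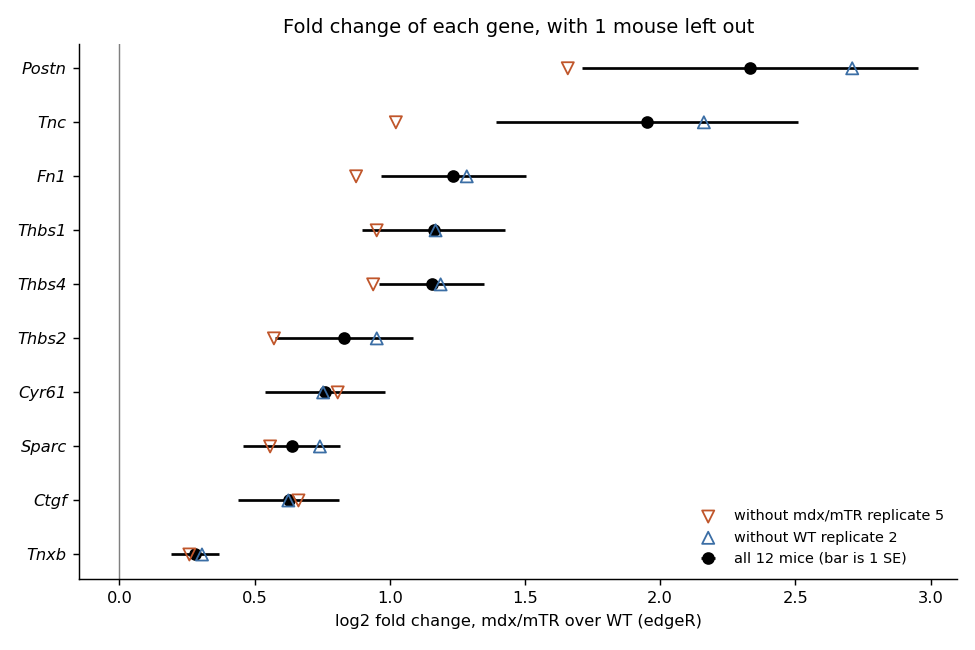
Log2 fold change (horizontal axis, mdx/mTR relative to WT) of each of the 10 genes from edgeR with all 12 mice (filled points, bars of 1 SE), without mdx/mTR replicate 5 and without WT replicate 2 (open triangles). Tnc and Postn shift most, to 1.02 and 1.66 without mdx/mTR replicate 5, and every plotted value lies above 0.

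The same mice were high across genes. WT replicates 2 and 4 were the 2 highest WT mice for 9 of the 10 genes, all but Cyr61, beside 10.9% of the 9509 genes with a mean of at least 5 CPM. Replicate 5 was the highest mdx/mTR mouse for Fn1, Postn, Tnc, Thbs1, Thbs2 and Thbs4, 6 of the 10, beside 25.1% of those genes. The CCN genes had another order: mdx/mTR replicate 1 was the highest for Ctgf and Cyr61 and the lowest for Fn1, Tnc, Tnxb, Thbs1, Thbs2 and Thbs4, and replicate 2 was the lowest for both CCN genes. The summed fibroblast markers were highest in WT replicate 2 and mdx/mTR replicate 5, and the macrophage markers in mdx/mTR replicate 5; their part in these orders was not tested. Leaving out WT replicate 2 and mdx/mTR replicate 5 together left all 10 genes called higher, beside 23.4% of all genes.

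**Figure D3:**
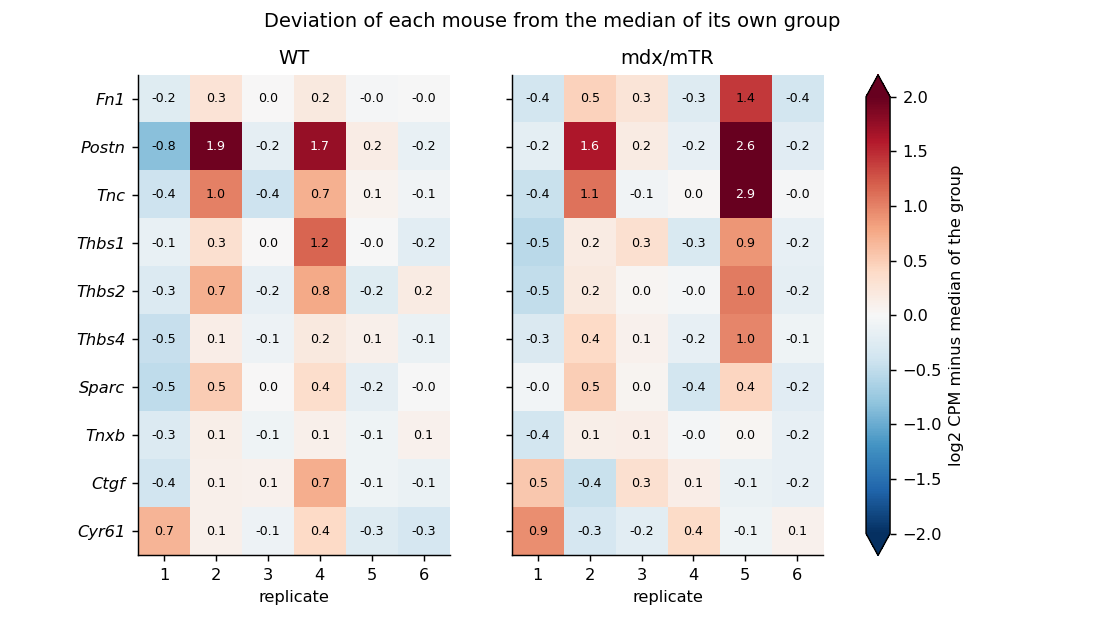
Deviation of each mouse (columns, replicates 1 to 6 of WT and mdx/mTR) from the median of its own group in log2 CPM for the 10 genes (rows); red is above and blue below the median, with the value in each cell. WT replicates 2 and 4 and mdx/mTR replicate 5 are high for most genes, and Ctgf and Cyr61 follow another order in mdx/mTR mice.

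Within the 6 mdx/mTR mice, 12 of 45 gene pairs had an adjusted Pearson p under 0.05, with 0.03125 the smallest, and 0 of 45 passed by Spearman's rho (exact permutation). With 6 mice, even the same rank order in both genes falls short after adjustment. Fn1 with Thbs2 had rho = 1 (exact permutation p = 0.00278, adjusted p = 0.125). The lack of passing pairs by rho thus does not show that rank orders differ. By Pearson r, Fn1 and Thbs4 were the closest pair (r = 0.984, exact permutation p = 0.00417, adjusted p = 0.03125). Their rho was 0.943 (exact permutation p = 0.0167, adjusted p = 0.125). Without replicates 2 and 5, the mice farthest from the median, r was 0.873 for that pair and 0.994 for Fn1 with Postn. For Fn1 with Tnc, r fell from 0.947 (exact permutation p = 0.0125, adjusted p = 0.0469, and rho = 0.829, exact permutation p = 0.0583) to 0.296. Within mdx/mTR muscle that relation thus leans on replicates 2 and 5. Across the WT mice r was 0.894 for Fn1 with Tnc, which was not tested. No pair with Tnxb, Sparc, Ctgf or Cyr61 passed. The genes of a pair share the library and its scaling. The share of pairs that pass among all genes was not computed, so 12 of 45 has no background beside it.

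Levels between genes were compared per kilobase of the longest coding transcript. In WT the order in CPM per kilobase was Sparc (186), Thbs4 (30.5), Cyr61 (19.7), Fn1 (13.9), Ctgf (7.60), Postn (6.65), Tnxb (6.61), Thbs2 (2.38), Thbs1 (1.82) and Tnc (0.866). Among neighbours in that order, only Sparc and Thbs4, and Tnxb and Thbs2, had ranges over mice that did not overlap. In mdx/mTR mice the order was Sparc (289), Thbs4 (67.9), Postn (33.5), Cyr61 (33.3), Fn1 (32.8), Ctgf (11.7), Tnxb (8.02), Thbs2 (4.23), Thbs1 (4.08) and Tnc (3.35). There only Sparc and Thbs4, and Fn1 and Ctgf, were separate. The place of Postn by its mean rests on mdx/mTR replicates 5 and 2, at 95.9 and 47.2 CPM per kilobase. In the other 4 mdx/mTR mice Postn was between 13.2 and 17.3 CPM per kilobase, below Fn1 (19.9 to 31.0) and Cyr61 (25.1 to 55.4).

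Markers of the cells that make most muscle matrix rose along with these genes. Of 8 fibroblast markers, 7 were called higher and 0 lower, beside 25.0% and 23.4% of all genes (median log2 fold change 1.27). Their summed level was 1178 to 2247 CPM in WT and 2980 to 6099 CPM in mdx/mTR mice. Each gene was therefore also read as a log2 ratio over the mean of these markers. Tnxb was lower on that scale in mdx/mTR muscle, with WT mice between -0.84 and -0.44 and mdx/mTR mice between -1.70 and -1.09, a difference of -0.76 (two-sided exact permutation p = 0.002165, the smallest this design allows; adjusted over 10 genes p = 0.0108). Sparc was also lower, with WT mice between 1.62 and 1.87 and mdx/mTR mice between 1.22 and 1.47, a difference of -0.40 (exact permutation p = 0.002165, adjusted p = 0.0108). Against Pdgfra, Dcn and Lum alone the Sparc difference was -0.32 and did not pass (exact permutation, adjusted p = 0.0974).

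Postn had the highest difference over the fibroblast markers, 1.16, and did not pass (exact permutation p = 0.0411, adjusted p = 0.137). The differences of Fn1 (0.05), Thbs4 (0.06) and Thbs1 (0.10) were smaller than the spread between mice, and those of Tnc (0.38), Thbs2 (-0.25), Ctgf (-0.42) and Cyr61 (-0.31) did not pass either (exact permutation, adjusted p from 0.325 to 0.885 over these 7 genes). Single mice moved several of these values: Tnc was at 0.0059 and Thbs1 at 0.019 without mdx/mTR replicate 5, Cyr61 at -0.11 without WT replicate 1 and Ctgf at -0.25 without mdx/mTR replicate 2. A marker level is not a cell count, and most of the 8 markers are themselves matrix genes. These are the collagen genes Col1a1, Col1a2, Col3a1 and Col6a3 and the proteoglycan genes Dcn and Lum.

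**Figure D4:**
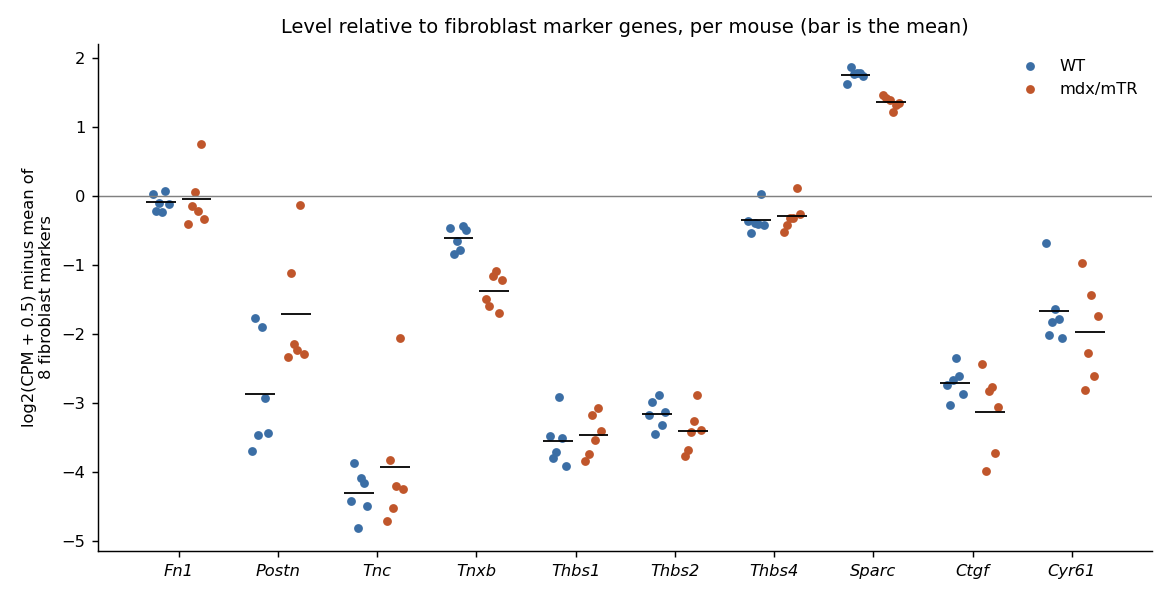
Log2 ratio of each gene to the mean of the 8 fibroblast markers (vertical axis, log2(CPM + 0.5)) in each WT and mdx/mTR mouse, with a bar at the mean of each group. Tnxb and Sparc are lower in all 6 mdx/mTR mice than in any WT mouse, while the groups overlap for the other genes.

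Markers of other cell types were read in the same way, counted as higher or lower where called. Over all genes tested, 25.0% were called higher and 23.4% lower. Macrophage markers were higher for 5 of 6 genes (summed level 49.0 to 81.6 CPM in WT and 112 to 288 CPM in mdx/mTR mice), and tendon markers for 3 of 6 (66.1 to 105 and 84.2 to 141 CPM). Of 6 platelet markers, 3 could be tested and 2 were higher (6.27 to 9.36 and 9.55 to 20.2 CPM); platelets store Thbs1 and Sparc. Endothelial markers were higher for 1 of 6 and lower for 3 (425 to 568 and 349 to 469 CPM), and smooth muscle and pericyte markers higher for 1 of 6 and lower for 4 (305 to 438 and 307 to 337 CPM). Schwann cell markers were higher for 1 of 6 and lower for 4 (78.2 to 95.6 and 70.6 to 112 CPM), satellite cell markers higher for 3 of 6 and lower for 1 (37.2 to 46.7 and 35.3 to 55.8 CPM), and adipocyte markers called for 0 of 5 (21.8 to 34.4 and 19.7 to 60.9 CPM). Cartilage and bone markers were called for 0 of the 2 tested (0.722 to 5.86 and 0.819 to 4.75 CPM), with Matn1 at 0 counts in all 12 libraries, which allows up to 0.04605 to 0.08375 CPM. With library totals alone, which called 1560 of all 13937 genes lower, the lower markers were 2 for endothelium, 1 for smooth muscle and pericytes and 0 for satellite cells. The part of these cells in the levels of the 10 genes was not tested.

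The relatives of these genes, with other matricellular and fibulin genes, were higher for 11 of 20 tested and lower for 1, Efemp1, which was not called with library totals alone (25.0% of all genes were called higher and 23.4% lower), with a median log2 fold change of 0.40. Thbs3 rose from 6.95 ± 1.05 to 17.1 ± 3.41 CPM (SD, n = 6 each; log2 fold change 1.30 ± 0.13, edgeR adjusted p = 6.33e-06). Comp, the cartilage oligomeric matrix protein and the remaining thrombospondin, rose from 3.67 ± 1.04 to 10.1 ± 2.46 CPM (1.45 ± 0.19, edgeR adjusted p = 5.12e-05). With them, all 5 thrombospondin genes were called higher. Ecm1 rose from 23.3 ± 1.66 to 33.3 ± 4.23 CPM (0.51 ± 0.08). The tenascin Tnn did not pass (-0.38 ± 0.75, edgeR adjusted p = 0.696).

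Of 16 receptors tested, 7 were higher and 3 lower, beside 25.0% and 23.4% of all genes, with a median of 0.23. Itga4, the integrin alpha-4 chain that binds a variable region of fibronectin, fell from 39.1 ± 1.89 to 9.99 ± 2.87 CPM (-1.97 ± 0.14, edgeR adjusted p = 3.66e-07). Itga5, the alpha chain of the main fibronectin-assembling integrin, named after its value was seen, rose from 15.2 ± 2.03 to 28.2 ± 6.39 CPM (0.89 ± 0.14, edgeR adjusted p = 0.000147). Of the thrombospondin receptors, Cd36, which also carries fatty acids, fell from 575 ± 64.0 to 328 ± 37.8 CPM (-0.81 ± 0.09), and Cd47 rose from 16.6 ± 1.19 to 22.6 ± 2.01 CPM (0.44 ± 0.07). The third lower receptor, Itgb5 (-0.30), was not called with library totals alone.

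Of 14 regulators, 4 were higher and 4 lower, near the 25.0% and 23.4% over all genes (median -0.03, and 0.13 with library totals alone). Tgfb1 rose from 6.94 ± 1.08 to 14.0 ± 4.28 CPM (1.01 ± 0.17, edgeR adjusted p = 0.000385), Tead3 from 9.74 ± 0.40 to 14.7 ± 2.38 CPM (0.59 ± 0.09) and Yap1 from 84.6 ± 6.62 to 106 ± 6.36 CPM (0.33 ± 0.06). The 4 lower genes, Smad2, Smad3, Srf and Mkl1, were not called with library totals alone. Of 8 other YAP and TEAD targets, 2 were higher and 2 lower, again near the 25.0% and 23.4% of all genes (median -0.01, and 0.15 with library totals alone): Ankrd1 rose from 15.2 ± 3.24 to 144 ± 34.4 CPM (3.24 ± 0.17, edgeR adjusted p = 3.1e-08), Axl rose (0.92 ± 0.11), Crim1 fell from 75.6 ± 10.6 to 29.5 ± 3.36 CPM (-1.36 ± 0.10) and Dlc1 (-0.16) was not called with library totals alone.

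**Figure D5:**
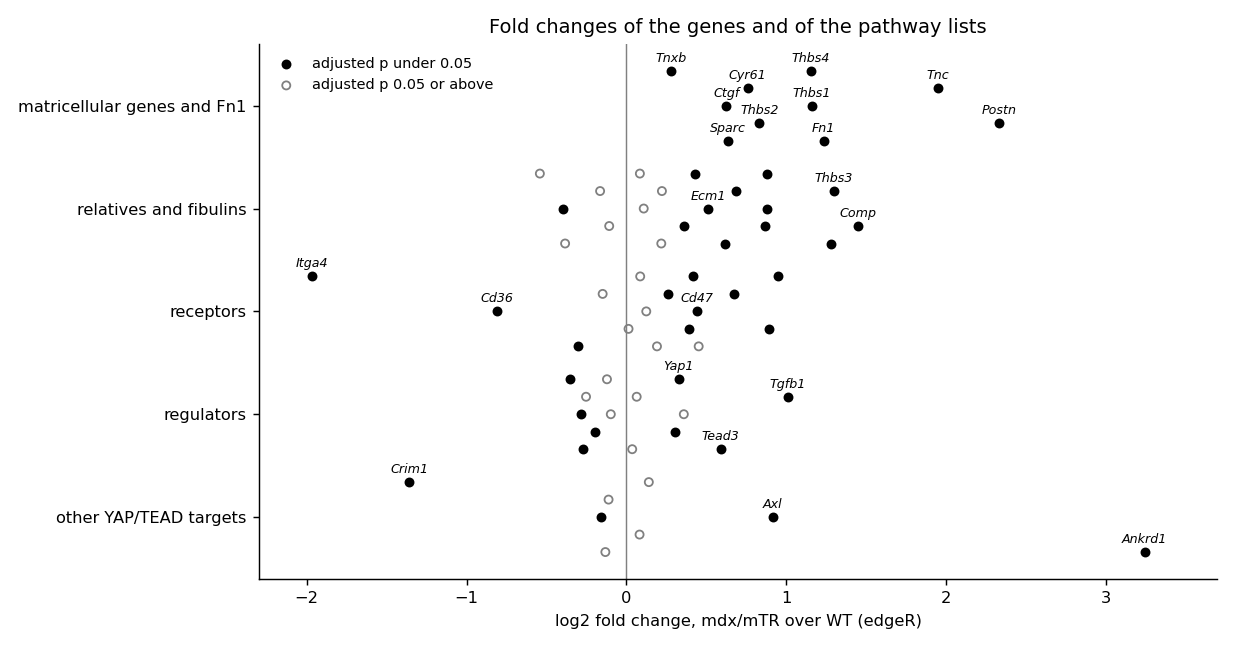
Log2 fold change (horizontal axis, mdx/mTR relative to WT) for each tested gene of the 10 and of the lists of relatives, receptors, regulators and other YAP/TEAD targets; filled points have an edgeR adjusted p under 0.05. The 10 genes all lie to the right of 0, from 0.28 (Tnxb) to 2.33 (Postn), while the other lists lie on both sides.

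The genes whose pattern over the 12 libraries was most like each of the 10 were ranked by Pearson r of log2(CPM + 0.5) among genes with a mean of at least 5 CPM; r here includes the difference between the groups and serves as a measure of likeness only. Postn was closest to Col16a1 (0.993), Dpysl3 (0.983) and Col1a1 (0.973), and Thbs2 to Far1 (0.972), Col16a1 (0.969) and Ifnar2 (0.969). Sparc was closest to the basement membrane genes Nid1 (0.986) and Lamb1 (0.976) and to Fap (0.974), a protease of activated fibroblasts. Thbs4 was closest to Chrnd (0.986), the delta subunit of the muscle acetylcholine receptor, then Lix1l (0.985) and Snx1 (0.985). Fn1 was closest to Kif3b (0.989), Iqgap1 (0.984) and Myo9b (0.984), Tnc to Ifnar1 (0.966), Kctd12 (0.958) and Stk4 (0.958), and Thbs1 to Igfbp4 (0.955), Arhgap42 (0.951) and Csnk1g1 (0.948). The closest to Tnxb were Arpin (0.955), Arl6ip1 (0.940) and Scara3 (0.930), to Cyr61 Rfc2 (0.939), Ppp1r14c (0.906) and Lrp2bp (0.905), and to Ctgf Rab13 (0.901), Marveld1 (0.892) and Rad50 (0.886).

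In the authors' deposited table all 10 genes were also higher at an adjusted p under 0.05. The deposited log2 fold change was 1.27 for Postn and 1.17 for Tnc in the authors' deposited table, below the 2.33 and 1.95 of edgeR. For Thbs4 it was 1.08 beside 1.16 and for Tnxb 0.27 beside 0.28. DESeq2 run here on the same counts gave 2.32 for Postn and 1.94 for Tnc. The version behind the deposited values is not given, and the cause of the gap was not tested. The deposited adjusted p was smallest for Thbs4 (9.39e-09 in the authors' deposited table).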

How the data were processed

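Whole tibialis anterior RNA of 12 mice was sequenced. The submitters' processing notes name FastQC, STAR, DESeq2 and the build mm10, without versions or roles; the counter, the annotation and the handling of strand are not given in the sources used here. The authors deposited raw read counts per gene symbol, with 1 column per mouse. A second deposited table gives, per the file headers, the mean of normalised counts (a coverage signal), the log2 fold change with its standard error, the Wald statistic (a score), and the p-value before and after adjustment; from it only log2 fold changes and adjusted p-values are quoted, as the authors' deposited values.

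Counts were fitted with edgeR 4.0.16 in R 4.3.3 (filterByExpr, TMM scaling, quasi-likelihood test, group as the only term, Benjamini-Hochberg over 13937 genes). These genes held 99.97% of all counts, and 5131 entries had no count. The median biological coefficient of variation was 11.6%. No pair of libraries agreed within sampling noise, so none was treated as a repeat. Ratios used log2(CPM + 0.5) and two-sided exact permutation tests over mice (computed with numpy 2.4.6), adjusted over 7 ratios or 10 genes. Ranks for Spearman's rho came from scipy 1.17.1. The fits and tests were tested on simulated data. P-values of group differences set the difference against the spread between these mice. Alternatives were DESeq2 1.42.0, limma-voom (limma 3.58.1), other scalings, filters and thresholds, a replicate block, and each mouse left out in turn.

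The 10 genes and all lists (relatives, receptors, regulators, other YAP and TEAD targets, and markers of myofibres, fibroblasts, tendon, macrophages, endothelium, smooth muscle and pericytes, platelets, Schwann cells, satellite cells, adipocytes, and cartilage and bone) were chosen with earlier results of these data known. Named from each non-marker list were the 3 genes with the smallest edgeR p; others are described as named after their values were seen or are the few lower genes of a list. Gene positions and lengths came from GENCODE M21 (GRCm38), with Ctgf and Cyr61 matched as Ccn2 and Ccn1.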

Additional observations from a re-analysis of the deposited data

Results flagged for a closer look

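Outlying mice were sought in 54 sets of 6 mice (10 levels, 7 ratios and 10 ratios over fibroblast markers, in 2 groups). In 9 sets the gap of the highest or lowest mouse to the nearest other exceeded Dixon's 95% critical share of the whole range. For independent sets of normally distributed values, chance would give about 1 in 20, or 2.7 sets. The levels were taken as CPM without logs, and the sets share mice and genes. The 9 beside 2.7 thus does not show an excess. Of the 9, 4 belonged to mdx/mTR replicate 5.

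In mdx/mTR replicate 5, Fn1 was 572 CPM (the other mdx/mTR mice 166 to 296 CPM), Tnc was 80.6 CPM (7.90 to 22.7 CPM) and Thbs2 was 45.4 CPM (15.7 to 25.1 CPM). Tnc over the fibroblast markers was also apart in this mouse, at -2.06 on the log2 scale (-4.71 to -3.82 in the others).

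In WT replicate 4, Thbs1 was 19.7 CPM (7.63 to 10.9 CPM in the other WT mice) and Ctgf was 29.3 CPM (13.6 to 18.9 CPM). In WT replicate 1, the log2 ratio of Ctgf to Cyr61 was -2.06 (-1.03 to -0.71 in the others) and Cyr61 over the fibroblast markers was -0.67 (-2.06 to -1.64). In WT replicate 5, Thbs4 over the fibroblast markers was 0.029 (-0.54 to -0.36).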

How the results depend on the processing

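Of 587 values recomputed under other settings, 556 kept their direction, their side of the threshold and, for counts, stayed within 1.5 times. All 10 genes stayed called higher with DESeq2, the other scalings, the other filters, the replicate block and each mouse left out. In those settings the share of all genes called higher ran from 19% without a filter to 40.2% with library totals alone. The count was 9 with limma-voom (without Tnc), beside 24% of all genes called higher, and 5 at an adjusted p of 0.01, beside 17%. It was 4 when the null was an absolute log2 change of up to 0.5, beside 7.26% of all genes. That last test called 1368 genes in all, 1012 higher and 356 lower, beside 6736, 3479 and 3257. Library totals alone gave 5596 higher and 1560 lower, so 78.2% of calls were higher in place of 51.6%. With each mouse left out, 6125 to 6816 genes were called.

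The labels do not state that replicate numbers pair the mice, and the main fit did not pair them. Correlations of same-numbered deviations ran from -0.155 to 0.354, with 2 of 6 over 0.1 (0.354 for replicate 1 and 0.285 for replicate 2). Mice of different numbers were not compared in this way, so the check does not decide whether numbers pair mice. A replicate block called 6420 genes. With the replicate block by sign flips, where the smallest exact p is 0.03125, Tnxb (-0.76) and Sparc (-0.40) over fibroblast markers had an adjusted p of 0.156 each. Sparc over Pdgfra, Dcn and Lum alone was -0.32 (exact permutation, adjusted p = 0.0974). Without WT replicate 2 and mdx/mTR replicate 5 together, an alternative chosen after seeing the data, the uncalled differences over fibroblast markers turned negative for Fn1 (-0.14), Thbs1 (-0.030) and Thbs4 (-0.058). With each mouse left out, Fn1 ranged from -0.11 to 0.12 and Thbs4 from -0.020 to 0.14 over the markers, the Thbs4 to Thbs1 difference from -0.17 to 0.032, and Sparc to Fn1 from -0.54 to -0.28. The cause of these shifts was not tested. A total of 3 counts, the limit that a count of 0 allows, is 0.04605 to 0.08375 CPM, well below the level of any of the 10 genes.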

Other observations

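The tenascin Tnn and the bone sialoprotein gene Ibsp, singled out after their values were seen, were low and uneven across mice. In WT, Tnn was 6.78 CPM in replicate 2 and 7.56 CPM in replicate 4, and 0.194 to 1.20 CPM in the other 4 mice. In mdx/mTR mice Tnn was 3.22, 4.53 and 3.27 CPM in replicates 2, 5 and 6 and 0.401 to 1.43 CPM in the other 3. Ibsp was 4.58 CPM in WT replicate 2 and 5.76 CPM in WT replicate 4, and 0.444 to 1.11 CPM in the other WT mice, and in mdx/mTR mice it was 1.81, 4.45 and 2.91 CPM in replicates 2, 5 and 6 and 0.383 to 1.12 CPM in the other 3. WT replicates 2 and 4 also had the highest Postn in WT, at 46.2 and 40.2 CPM, but mdx/mTR replicate 6 had the lowest Postn of its group, at 42.4 CPM. Whether tissue other than muscle contributed to these libraries was not tested.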
